A study of Mus musculus with 15 samples.

Results

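The 10 genes described here encode the receptors for transforming growth factor β (TGF-β), its main ligand in lymphocytes, and the SMAD proteins and SMAD inhibitors through which the receptors act: Tgfbr1, Tgfbr2, Tgfbr3, Tgfb1, Smad2, Smad3, Smad4, Smad7, Ski and Skil. They were found by symbol in the probe annotation of the array, which names 16593 symbols for 25697 probes. It lists 14 probes for 8 of the 10 genes and none for Smad7 or Ski, which are therefore not described further. The 8 genes with a probe were among the 6838 genes that passed the detection filter and were tested, and 10 of their 14 probes passed it. The study measured 15 single-colour Illumina mouse bead arrays, 3 in each of 5 groups of cells sorted from thymi of 4-week-old mice. The knock-out (KO) groups came from mice with floxed alleles of Dicer (lox/lox) and CD4-Cre +/-. The wild-type (WT) groups came from mice with the same floxed alleles and CD4-Cre -/-. The CD4 promoter drives Cre in developing thymocytes of the conventional as well as the invariant NKT (iNKT) lineage. KO iNKT cells were sorted as HSA low, TCRβ intermediate and CD1d tetramer positive, with no gate on maturation. WT iNKT stage 3 cells had the same gates and were also NK1.1 positive and CD44 high, and WT iNKT stage 1-2 cells were NK1.1 negative with high or low CD44. KO T and WT T cells were HSA low, TCRβ positive and CD1d tetramer negative. The labels do not say that arrays of a group came from separate animals, so the p-values measure the spread between these samples, which may be technical.

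TGF-β binds the type II receptor, a kinase encoded by Tgfbr2, which then phosphorylates and switches on the type I receptor kinase encoded by Tgfbr1. Tgfbr3 encodes betaglycan, a co-receptor that presents ligand to the kinases. The active type I receptor phosphorylates SMAD2 and SMAD3, which join SMAD4, enter the nucleus and regulate transcription. SKI and SKIL (SnoN) hold SMAD complexes in check, and SMAD7 blocks the receptor. In the thymus TGF-β signals restrain T cell activation, and they are known to be needed for the expansion and the stepwise maturation of iNKT cells. Dicer is the RNase that releases mature microRNAs from their precursors.

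MicroRNAs of the miR-17 family are known to target the Tgfbr2 transcript, and miR-18a, made from the same primary transcript as miR-17 and miR-20a, is known to lower Smad4. They are shown because their maturation depends on the deleted enzyme. MicroRNA levels were not measured on these arrays and no target sites were searched. The mature sequences, from the RefSeq annotation of build GRCm38.p6, are printed 5′ to 3′ with the seed (bases 2 to 8) in capitals.
mmu-miR-17-5p: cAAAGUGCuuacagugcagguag
mmu-miR-20a-5p: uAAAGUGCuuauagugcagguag
mmu-miR-106b-5p: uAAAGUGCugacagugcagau
mmu-miR-93-5p: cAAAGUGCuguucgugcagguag
mmu-miR-18a-5p: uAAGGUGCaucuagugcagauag
The first 4 share 1 seed, which 7 mature microRNAs of the table carry, and that of miR-18a differs from it by a single base.

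The median signal per array was 88.3 to 124, and 29.2% (WT iNKT stage 3 replicate 2) to 40.8% (WT iNKT stage 1-2 replicate 3) of probes were detected at a detection p-value under 0.05. WT iNKT stage 1-2 replicate 1 had the lowest median signal and 30.3% of probes detected. The Dicer1 probe stood at a log2 intensity of 6.31, 6.21 and 6.48 in KO iNKT cells, against 7.31, 6.62 and 7.60 in WT iNKT stage 3 cells and 5.94, 6.60 and 6.21 in WT iNKT stage 1-2 cells. It stood at 6.12, 6.44 and 6.60 in KO T cells, against 6.43, 6.59 and 6.30 in WT T cells. Whether this probe lies in the deleted part is not given in the sources used here, so it does not check the labels. T cell markers such as Cd3e were detected on every array, whereas the stage 3 marker Klrb1c, which encodes NK1.1, was detected on 1 of 3 KO iNKT arrays, 3 of 3 WT iNKT stage 3 arrays and 1 of 3 WT iNKT stage 1-2 arrays. Markers of myeloid cells differed between the groups. The mean log2 intensity of 18 myeloid genes (of 20 listed, among them S100a8 and Lyz2) was 8.369 to 9.997 on KO iNKT arrays, 5.31 to 6.36 on WT iNKT stage 3 arrays and 8.07 to 8.40 on WT iNKT stage 1-2 arrays. It was 4.59 to 4.64 on KO T and 4.59 to 4.61 on WT T arrays, where 15 of the 18 genes were detected on no array. B cell and MHC class II genes (9 of 10 listed) averaged 7.27 to 8.19 in KO iNKT, 5.35 to 5.78 in WT iNKT stage 3 and 6.97 to 8.31 in WT iNKT stage 1-2 cells. The part of other cells in the results below was not tested. In bulk samples, fewer cells of a type and less RNA per cell cannot be told apart.

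The 3 receptors had their lowest mean in WT iNKT stage 1-2 cells, and their means were higher in KO than in WT cells of the same lineage. All levels are log2 intensities after background correction and quantile normalization, and levels of different genes are not compared. The type I receptor Tgfbr1 stood at 8.98, 8.40 and 8.45 in KO iNKT cells, against 6.65, 7.58 and 7.71 in WT iNKT stage 3 cells and 6.86, 6.78 and 7.07 in WT iNKT stage 1-2 cells. It stood at 8.27, 8.64 and 8.68 in KO T cells, against 7.97, 7.68 and 7.77 in WT T cells. Every KO iNKT array lay above every WT iNKT array of either stage, and every KO T array above every WT T array. In order of mean, KO iNKT and KO T cells overlapped, WT T cells lay below both, and the WT T, WT iNKT stage 3 and WT iNKT stage 1-2 arrays overlapped from one to the next.

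The type II receptor Tgfbr2 stood at 10.63, 10.09 and 10.62 in KO iNKT cells, against 9.97, 9.86 and 10.56 in WT iNKT stage 3 cells and 9.10, 9.41 and 9.30 in WT iNKT stage 1-2 cells. It stood at 12.21, 11.91 and 12.87 in KO T cells, against 10.999, 10.93 and 11.40 in WT T cells. The order of means was KO T, WT T, KO iNKT, WT iNKT stage 3 and WT iNKT stage 1-2, and of the neighbours in it KO iNKT and WT iNKT stage 3 cells alone overlapped. The co-receptor Tgfbr3 stood at 6.83, 6.29 and 6.18 in KO iNKT cells, against 5.45, 4.53 and 5.54 in WT iNKT stage 3 cells and 4.51, 5.15 and 5.43 in WT iNKT stage 1-2 cells. It stood at 8.01, 8.32 and 8.25 in KO T cells, against 6.76, 8.13 and 7.09 in WT T cells. The KO iNKT arrays lay above all 6 WT iNKT arrays and below all KO T arrays, KO iNKT replicate 1 lay just above WT T replicate 1, and the overlap of KO T with WT T cells came from WT T replicate 2. Tgfbr3 was not detected on WT iNKT stage 3 replicate 2 and WT iNKT stage 1-2 replicate 1, which were the 2 arrays with the smallest share of detected probes.

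**Figure D1:**
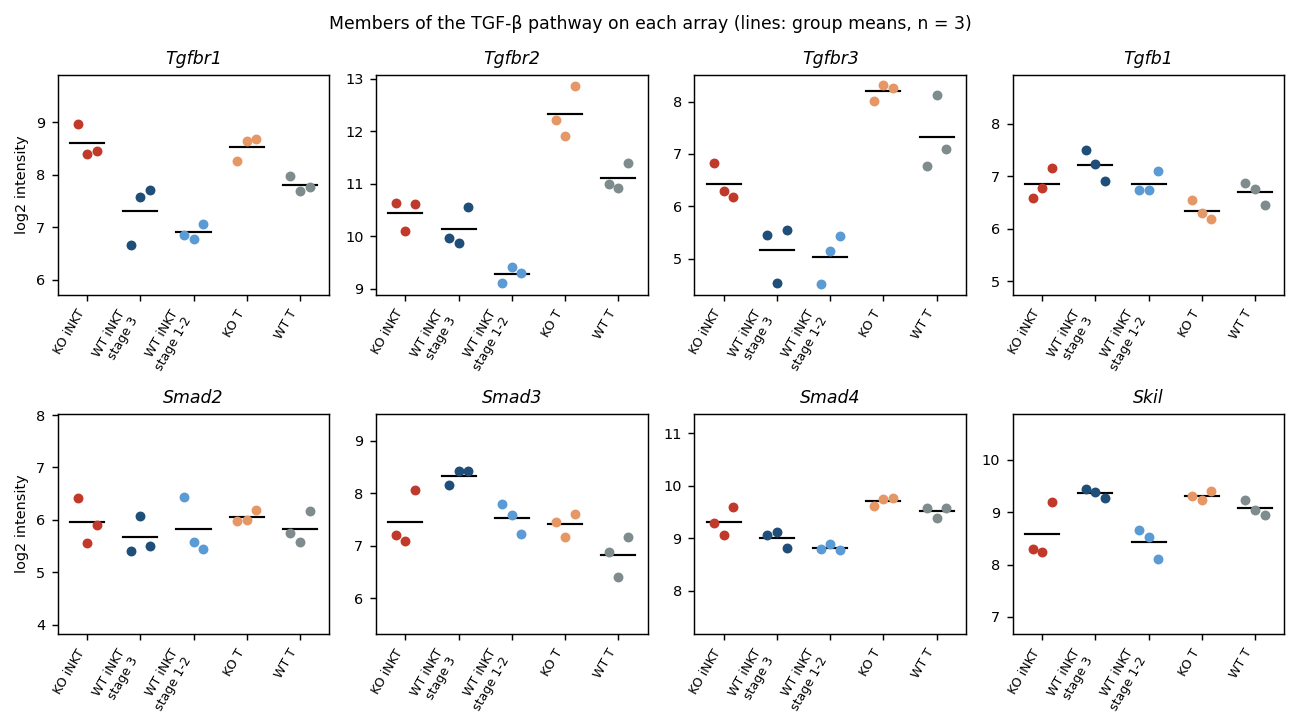
Log2 intensity of each of the 8 genes (y axis, the same span of 4.2 in every panel) on each array (points) in the 5 groups (x axis), with a line at the mean of 3 arrays. Tgfbr2 ran from a mean of 9.27 in WT iNKT stage 1-2 cells at the low end to 12.33 in KO T cells at the high end, while the means of Smad2 stayed between 5.66 and 6.05.

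The ligand gene and Smad2 were flatter than the receptors. Group means of Smad3 ran from 6.82 in WT T cells to 8.33 in WT iNKT stage 3 cells. Tgfb1, the ligand gene, stood at 6.59, 6.78 and 7.16 in KO iNKT cells, against 7.49, 7.23 and 6.91 in WT iNKT stage 3 cells and 6.73, 6.74 and 7.09 in WT iNKT stage 1-2 cells. It stood at 6.54, 6.30 and 6.19 in KO T cells, against 6.88, 6.76 and 6.45 in WT T cells, and each group overlapped with its neighbours in the order of means. Smad2 ranged from 5.41 to 6.44 over the 15 arrays with every neighbouring pair of groups overlapping. Its fellow receptor-activated SMAD, Smad3, stood at 7.20, 7.10 and 8.06 in KO iNKT cells, against 8.16, 8.42 and 8.42 in WT iNKT stage 3 cells and 7.79, 7.58 and 7.23 in WT iNKT stage 1-2 cells. It stood at 7.45, 7.17 and 7.60 in KO T cells, against 6.87, 6.41 and 7.17 in WT T cells. WT iNKT stage 3 cells stood above every other group for Smad3.

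Smad4, the shared partner of the receptor-activated SMADs, stood at 9.29, 9.06 and 9.59 in KO iNKT cells, against 9.06, 9.11 and 8.82 in WT iNKT stage 3 cells and 8.80, 8.88 and 8.78 in WT iNKT stage 1-2 cells. It stood at 9.62, 9.75 and 9.77 in KO T cells, against 9.57, 9.38 and 9.58 in WT T cells. Its group means followed the same order as those of Tgfbr2 and Tgfbr3. The inhibitor Skil, itself a gene that TGF-β signals induce, stood at 8.30, 8.25 and 9.19 in KO iNKT cells, against 9.44, 9.39 and 9.26 in WT iNKT stage 3 cells and 8.65, 8.53 and 8.11 in WT iNKT stage 1-2 cells. It stood at 9.31, 9.22 and 9.40 in KO T cells, against 9.22, 9.03 and 8.95 in WT T cells. KO iNKT replicate 3 was the highest KO iNKT array for Smad3, Smad4 and Skil and also the one with the lowest mean of the myeloid genes, 8.37 against 9.997 and 9.85 on the other KO iNKT arrays.

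The genes have 6 probes besides those that represent them, and 3 of these were detected on no array. Of the 4 Tgfbr1 probes, 2 were detected on no array, and another was detected on 2 of 3 arrays in each of KO iNKT, KO T and WT T cells and on no WT iNKT array. This other probe stood at 5.38, 4.62 and 5.28 in KO iNKT cells, against 4.61, 4.66 and 4.69 in WT iNKT stage 3 cells and 4.997, 4.65 and 4.49 in WT iNKT stage 1-2 cells. The second Tgfbr2 probe was detected on all KO T arrays (5.51, 5.38 and 6.09), on no KO iNKT array and on 1 of 3 arrays in each WT group. The second Tgfbr3 probe was detected on the 3 KO T arrays alone (5.13, 5.13 and 5.08). Both of these probes passed the detection filter through KO T cells alone, so the comparisons with KO T cells lean towards higher KO T values. Those comparisons are therefore no separate support for the probes that represent the genes. Both were lower in KO iNKT than in KO T cells, at least 1.77-fold and at least 1.21-fold against the detection limit (adjusted p = 0.00236 and 0.00331 in limma). Neither passed in KO iNKT against WT iNKT stage 1-2 cells (adjusted p = 0.924 and 0.829), a comparison in which the Tgfbr2 probe was detected on 1 array and the Tgfbr3 probe on none. For both, all KO T arrays lay above all WT T arrays. The Tgfbr3 probe was at least 1.12-fold higher in KO T cells, with an adjusted p of 0.166 in the limma fit of kept probes and 0.0203 in that of all probes, and the Tgfbr2 probe passed in neither (0.385 and 0.436). The second Skil probe was detected on no array.

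The first comparison set KO iNKT cells against WT iNKT stage 1-2 cells, asking how the pathway genes differed from those of less mature WT iNKT cells. The KO sort had no gate on maturation, so genotype, gate and the mix of stages and other cells cannot be told apart. The same holds for the comparison with WT iNKT stage 3 cells below. All 3 receptor genes were higher in KO iNKT cells, while the ligand, the SMAD genes and Skil did not pass the test. Tgfbr1 was raised 3.26-fold, a log2 change of 1.71 with a standard error of 0.26 (limma, adjusted p = 0.00193, 3 arrays in each group); later changes are given in the same form, with ± for the standard error. Tgfbr3 rose 2.64-fold (1.40 ± 0.34, adjusted p = 0.032), and Tgfbr2 rose 2.26-fold (1.18 ± 0.26, adjusted p = 0.0206). Thus 3 of 8 tested members were higher and none lower at an adjusted p under 0.05, against 1.96% higher and 1.05% lower among all 6838 genes. The median change of the members was 0.32, beside -0.01 for all genes. These counts describe genes chosen with such results in view. Without background correction the Tgfbr3 change was 0.53 (adjusted p = 0.119) and in the authors' normalized values 0.55 (0.123), so that call ended in both. By rank of p, Tgfbr1 was at place 14, Tgfbr2 at 109 and Tgfbr3 at 166.

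Smad4 had a change of 0.49 (95% interval 0.10 to 0.89) and did not pass (adjusted p = 0.156 in limma). The change of Tgfb1 was -0.01 (95% interval -0.47 to 0.45), that of Smad2 0.14 (-0.46 to 0.74), that of Smad3 -0.08 (-0.64 to 0.48) and that of Skil 0.15 (-0.35 to 0.65). The Tgfbr1 call held with each array left out. The Tgfbr2 call was lost without WT iNKT stage 1-2 replicate 1 (adjusted p = 0.0714) or 2 (0.0532) or KO iNKT replicate 1 (0.0986), and the Tgfbr3 call without the same arrays (0.127, 0.0826 and 0.155) or KO iNKT replicate 2 (0.0699). When arrays were scaled to a common median instead, all 3 calls ended (adjusted p = 0.748 each), with no gene of the table called. The median of all genes then stood at -0.43, and relative to it Tgfbr1, Tgfbr2 and Tgfbr3 were at 1.55, 1.11 and 1.06.

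**Figure D2:**
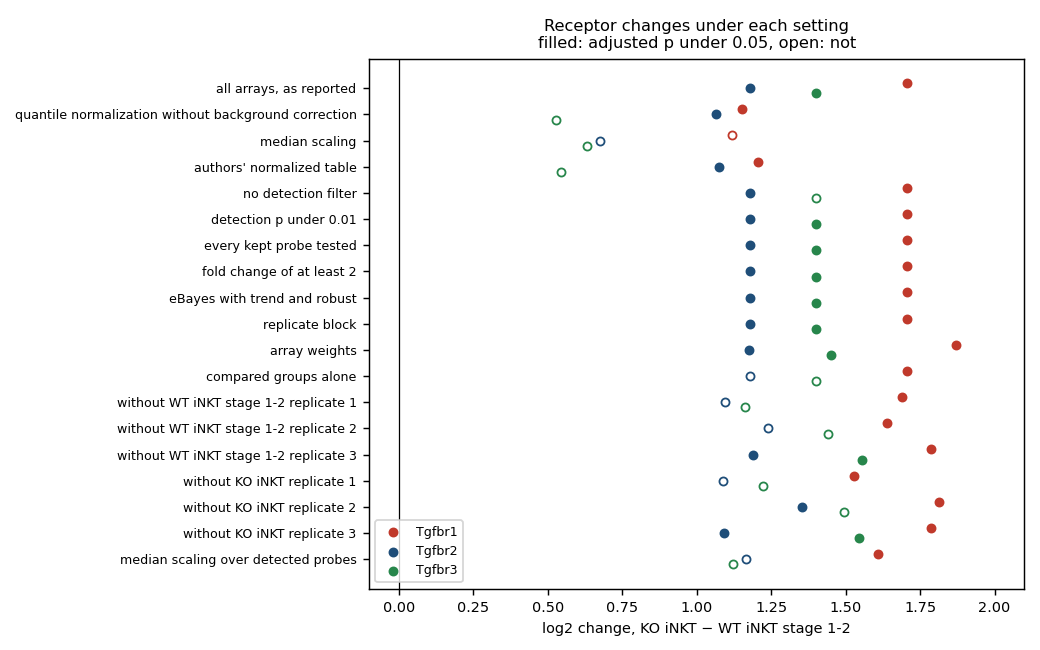
Log2 change of Tgfbr1, Tgfbr2 and Tgfbr3 in KO iNKT minus WT iNKT stage 1-2 cells (x axis) under each setting of the processing and with each array left out (y axis); filled points had an adjusted p under 0.05. All points lie above 0, from 0.53 (Tgfbr3 without background correction) to 1.87 (Tgfbr1 with array weights), and Tgfbr1 is open under median scaling alone.

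Tgfbr1 and Tgfbr2, which rose together here, have a promoter window in the RefSeq-based table used (build GRCm38.p6, 300 bases across the start), and their sequences are printed because the arrays cannot show which start was used. Capitals mark the GC box GGGCGG and the core of the SMAD-binding element, CAGAC, searched on both strands. The windows are 5′ to 3′ on the gene's strand.
Tgfbr1, chr4:47352972-47353271, plus strand: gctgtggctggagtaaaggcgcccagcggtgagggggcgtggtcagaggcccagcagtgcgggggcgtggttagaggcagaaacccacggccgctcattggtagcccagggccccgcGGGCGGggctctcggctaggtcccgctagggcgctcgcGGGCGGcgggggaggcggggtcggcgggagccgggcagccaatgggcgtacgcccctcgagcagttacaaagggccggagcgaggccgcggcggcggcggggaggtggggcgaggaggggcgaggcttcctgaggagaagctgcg
Tgfbr2, chr9:116175314-116175613, minus strand: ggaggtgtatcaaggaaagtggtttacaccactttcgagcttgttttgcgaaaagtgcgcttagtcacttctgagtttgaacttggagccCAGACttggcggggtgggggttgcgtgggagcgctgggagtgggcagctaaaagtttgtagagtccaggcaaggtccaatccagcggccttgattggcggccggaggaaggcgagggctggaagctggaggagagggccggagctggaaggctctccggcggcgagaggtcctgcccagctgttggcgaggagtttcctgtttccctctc
The Tgfbr1 window held 2 GC boxes and no SMAD core, and the Tgfbr2 window held 1 SMAD core and no GC box. A second Tgfbr1 start in the table, not shown, had 1 SMAD core. Of all 32851 windows, 35.66% held a GC box and 49.59% a SMAD core.

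Because the KO sort had no gate on maturation, the KO iNKT arrays were also compared with those of WT iNKT stage 3 cells. Tgfbr1 and Tgfbr3 were again higher in KO iNKT cells, whereas Smad3 and Skil were lower. Tgfbr1 rose 2.46-fold (1.30 ± 0.26, adjusted p = 0.00114 in limma) and Tgfbr3 rose 2.39-fold (1.26 ± 0.34, adjusted p = 0.0109). Smad3 fell by 0.88 ± 0.27 on the log2 scale (adjusted p = 0.019) and Skil fell by 0.78 ± 0.24 (adjusted p = 0.0192), with every KO iNKT array below every WT iNKT stage 3 array for both, as for 18.4% of all genes. In this comparison 4 of 8 tested members passed, 2 higher and 2 lower, against 29.9% of all genes in either direction. Tgfbr2 had a change of 0.32 (95% interval -0.24 to 0.87, adjusted p = 0.39), Smad4 one of 0.32 (-0.08 to 0.71), Smad2 one of 0.30 (-0.30 to 0.90) and Tgfb1 one of -0.37 (-0.83 to 0.10). All 7 T cell markers tested fell in the same comparison (median -1.21), Cd3e standing at a mean of 10.31 in KO iNKT and 11.68 in WT iNKT stage 3 cells, and 4 of 6 iNKT markers fell (median -1.90). Of the double-positive thymocyte markers 4 of 6 rose (median 1.66), and of the naive T cell markers 2 of 3 rose (median 1.47). Against WT iNKT stage 1-2 cells, where 1.96% of all genes were higher and 1.05% lower, fewer of these markers passed. There 1 of 6 double-positive and 1 of 3 naive T cell markers rose, and 1 of 7 T cell markers fell. The part of these markers in the results was not tested. Both comparisons use the same 3 KO iNKT arrays, so their values stand side by side without being independent.

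Of these 4 calls, that of Tgfbr1 held with each array left out. That of Tgfbr3 was lost without WT iNKT stage 3 replicate 2 (adjusted p = 0.0581) or KO iNKT replicate 1 (0.0548), and also without background correction (0.48, adjusted p = 0.0572) and in the authors' normalized values (0.50, 0.0589). That of Smad3 was lost without WT iNKT stage 3 replicate 2 (0.0533) or 3 (0.0525) or KO iNKT replicate 1 (0.0801) or 2 (0.0992), and that of Skil without WT iNKT stage 3 replicate 1 (0.0517) or KO iNKT replicate 1 (0.0877) or 2 (0.0996). The number of members called fell to 1 without KO iNKT replicate 1 and to 0 under median scaling, where the median of all genes stood at -0.19.

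**Figure D3:**
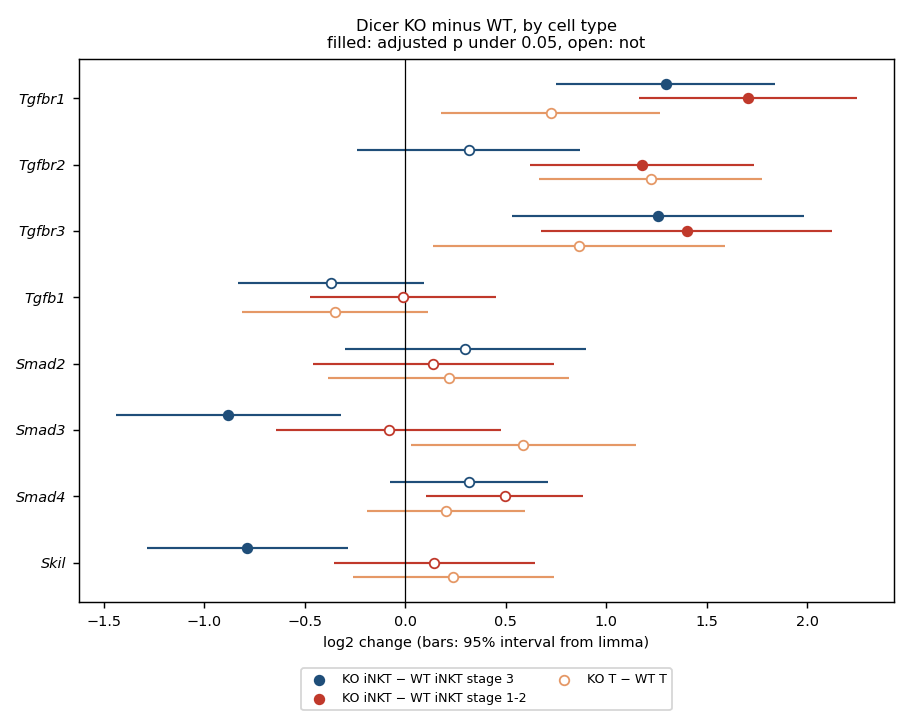
Log2 change of each gene (y axis) in KO minus WT cells (x axis) for iNKT cells against each WT stage and for T cells; bars are 95% intervals from limma and filled points had an adjusted p under 0.05. The receptors lie to the right of 0 in all 3 comparisons, and Smad3 and Skil are to the left of 0, past the threshold, against WT iNKT stage 3 cells.

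In T cells, KO against WT asked whether conventional T cells of the same genotypes showed such changes. None of the 8 tested members passed in limma at an adjusted p under 0.05, against 0.117% higher and 0.0292% lower among all genes. An unadjusted p under 0.05 was found for 4 of the 8 and for 647 of all 6838 genes. Tgfbr2 was nearest to the threshold, with 2.33 times the WT T level in KO T cells (1.22 ± 0.26, 95% interval 0.67 to 1.78, adjusted p = 0.0677), place 23 of 6838 by p and all KO T arrays above all WT T arrays. With trend and robust settings in limma its adjusted p was 0.0202, and in the authors' normalized values it was 0.0306. Tgfbr1 had a change of 0.72 ± 0.26 (adjusted p = 0.402), Tgfbr3 one of 0.86 ± 0.34 (adjusted p = 0.453) and Smad3 one of 0.59 ± 0.27 (adjusted p = 0.526). Of the 8, Tgfbr1, Tgfbr2, Smad3 and Smad4 had all KO T arrays above all WT T arrays, a pattern shown by 11.2% of all genes, although for Smad3 the gap between the groups was below 0.01. T cell samples of both genotypes had myeloid marker levels near the background, as given above.

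Whether the KO minus WT change differed between the lineages was tested directly, as that in iNKT cells (against WT iNKT stage 1-2) minus that in T cells. The iNKT part of it holds the difference of gates given above. No member passed in limma (adjusted p = 0.409 to 0.988), against 0.132% of all genes above 0 and 0.0439% below 0. An unadjusted p under 0.05 was found for 1 member, Tgfbr1, and for 590 of all 6838 genes. The difference was 0.98 for Tgfbr1 (95% interval 0.21 to 1.75), -0.04 for Tgfbr2 (-0.83 to 0.74) and 0.54 for Tgfbr3 (-0.49 to 1.56). A receptor change that passed in iNKT cells and not in T cells is thus not shown to differ between them.

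**Figure D4:**
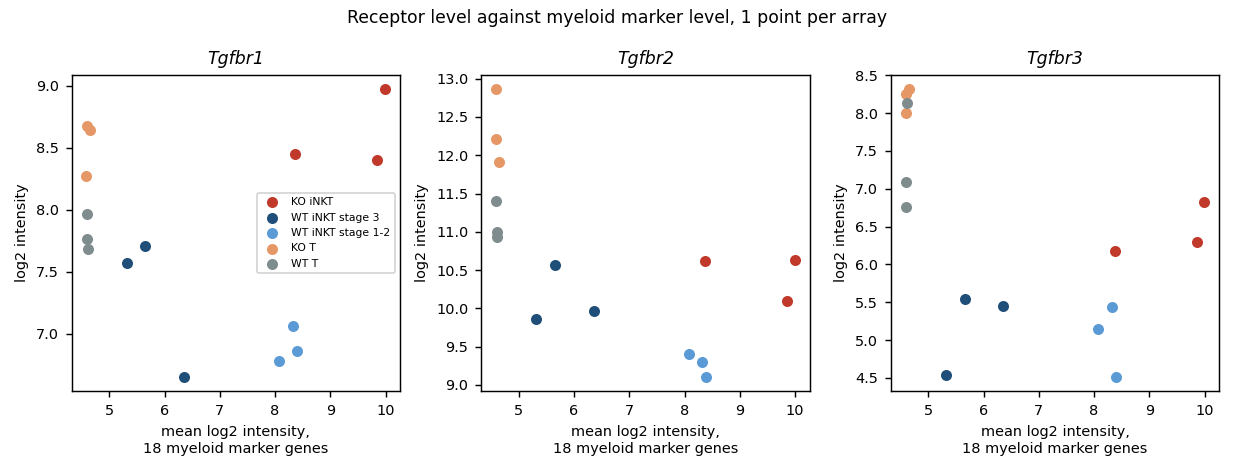
Log2 intensity of Tgfbr1, Tgfbr2 and Tgfbr3 (y axis) against the mean log2 intensity of 18 myeloid marker genes (x axis), 1 point per array, coloured by group. WT iNKT stage 1-2 arrays, at 8.07 to 8.40 on the x axis, had lower values of all 3 receptors than KO iNKT replicate 3 at 8.37, and the T cell arrays, at 4.59 to 4.64, had the highest Tgfbr2. KO iNKT replicates 1 and 2 lay at 9.997 and 9.85 on the x axis. The part of myeloid cells in the receptor levels was not tested.

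Of the 15 myeloid genes tested, 4 rose and none fell in KO iNKT against WT iNKT stage 1-2 cells, with a median change of 1.29. Among all genes 1.96% were higher and 1.05% lower. KO iNKT replicate 3 had a myeloid mean of 8.37, within the range of the WT iNKT stage 1-2 arrays, and stood at 8.45 for Tgfbr1, 10.62 for Tgfbr2 and 6.18 for Tgfbr3, above all 3 of them for each gene. With KO iNKT replicate 1, the array with the highest myeloid mean, left out, the changes against WT iNKT stage 1-2 cells were 1.53 for Tgfbr1, 1.09 for Tgfbr2 and 1.22 for Tgfbr3. The Tgfbr2 and Tgfbr3 calls were then lost in limma (adjusted p = 0.0986 and 0.155). KO iNKT replicate 2, with a myeloid mean of 9.85, stayed in. These values rest on single arrays, and the part of myeloid cells in the receptor changes was not tested.

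Among WT cells, stage 3 against stage 1-2 asked how the pathway changes as iNKT cells mature. Tgfbr2, Smad3 and Skil were higher at stage 3, by 0.86 ± 0.26 (adjusted p = 0.0287 in limma), 0.80 ± 0.27 (0.0427) and 0.93 ± 0.24 (0.0108), each with all stage 3 arrays above all stage 1-2 arrays, as for 15.3% of all genes. This was 3 of 8 tested members higher and none lower, against 9.11% higher among all genes. In the same comparison 4 of 7 T cell and 4 of 6 iNKT markers tested were higher (median 0.62 and 1.63) and none lower. Of the myeloid genes 12 of 15 were lower (median -3.36), and all 5 B cell and MHC class II genes tested were lower (median -3.23). The part of these markers in the changes of the members was not tested. Tgfbr1 had a change of 0.41 (95% interval -0.13 to 0.95), Tgfbr3 one of 0.14 (-0.58 to 0.87), and Tgfb1, Smad2 and Smad4 lay between -0.16 and 0.36 without passing. The Skil call was lost without WT iNKT stage 1-2 replicate 3 (adjusted p = 0.0535), and that of Tgfbr2 without WT iNKT stage 1-2 replicate 1 (0.0845) or 3 (0.0613) or WT iNKT stage 3 replicate 3 (0.126). That of Smad3 held only without WT iNKT stage 1-2 replicate 1. KO iNKT cells had Smad3 and Skil levels that overlapped with those of stage 1-2 cells, and a Tgfbr2 level that overlapped with that of stage 3 cells.

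Against WT T cells, Tgfbr2 and Tgfbr3 were lower at both WT iNKT stages, and Tgfbr1 was lower at stage 1-2. In WT iNKT stage 1-2 cells Tgfbr3 fell by 2.30 ± 0.34 (4.92-fold lower, adjusted p = 9.97e-05 in limma), Tgfbr2 fell by 1.84 ± 0.26 (3.58-fold lower, adjusted p = 6.34e-05), Tgfbr1 fell by 0.90 ± 0.26 (0.0169) and Smad4 fell by 0.69 ± 0.19 (0.0119). In WT iNKT stage 3 cells Tgfbr3 fell by 2.16 ± 0.34 (4.45-fold lower, adjusted p = 0.000177) and Tgfbr2 fell by 0.98 ± 0.26 (0.012), while Smad3 rose 2.85-fold (1.51 ± 0.27, adjusted p = 0.000444). These were 4 of 8 lower and none higher at stage 1-2, against 11.9% and 11.5% of all genes, and 2 lower and 1 higher at stage 3, against 12.5% and 10.6%. At stage 1-2, 6 of 7 T cell markers were lower (median -0.93) and 12 of 15 myeloid genes higher (median 4.68). At stage 3, 3 T cell markers were lower and 1 higher (median -0.46), and 6 myeloid genes were higher and 1 lower (median 0.98). The part of these markers in the changes of the members was not tested. Tgfbr1 had a change of -0.49 at stage 3 (95% interval -1.04 to 0.05, adjusted p = 0.186). The size of the Tgfbr3 change rests on 2 of 3 arrays with the probe detected at each WT iNKT stage, and without background correction it was -1.03 at stage 1-2 and -0.99 at stage 3, past the threshold in both. Without that correction Tgfbr1 at stage 1-2 was at -0.56 and Smad3 at stage 3 at 0.97, also past it. The Tgfbr1 call at stage 1-2 was lost without WT iNKT stage 1-2 replicate 2 (0.0547) or WT T replicate 1 (0.0688), and the Tgfbr2 call at stage 3 without WT iNKT stage 3 replicate 2 (0.057) or WT T replicate 3 (0.064).

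The same comparison without Dicer, KO iNKT against KO T cells, gave lower Tgfbr2 and Tgfbr3 in KO iNKT cells. Tgfbr2 fell by 1.88 ± 0.26 (3.68-fold lower, adjusted p = 3.32e-05 in limma), Tgfbr3 fell by 1.76 ± 0.34 (3.39-fold lower, adjusted p = 0.000782) and Skil fell by 0.73 ± 0.24 (adjusted p = 0.0245). This was 3 of 8 lower and none higher, against 17.2% lower and 15.8% higher among all genes. All 7 T cell markers tested were lower in the same comparison (median -1.58), and 14 of 15 myeloid genes were higher (median 5.82). The part of these markers in the changes of the members was not tested. The Tgfbr3 change was -1.07 without background correction, past the threshold. Tgfbr1 did not pass (0.08, 95% interval -0.46 to 0.62). The Skil call was lost without KO iNKT replicate 1 (0.106) or 2 (0.117) or KO T replicate 1 (0.057) or 3 (0.0768).

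**Figure D5:**
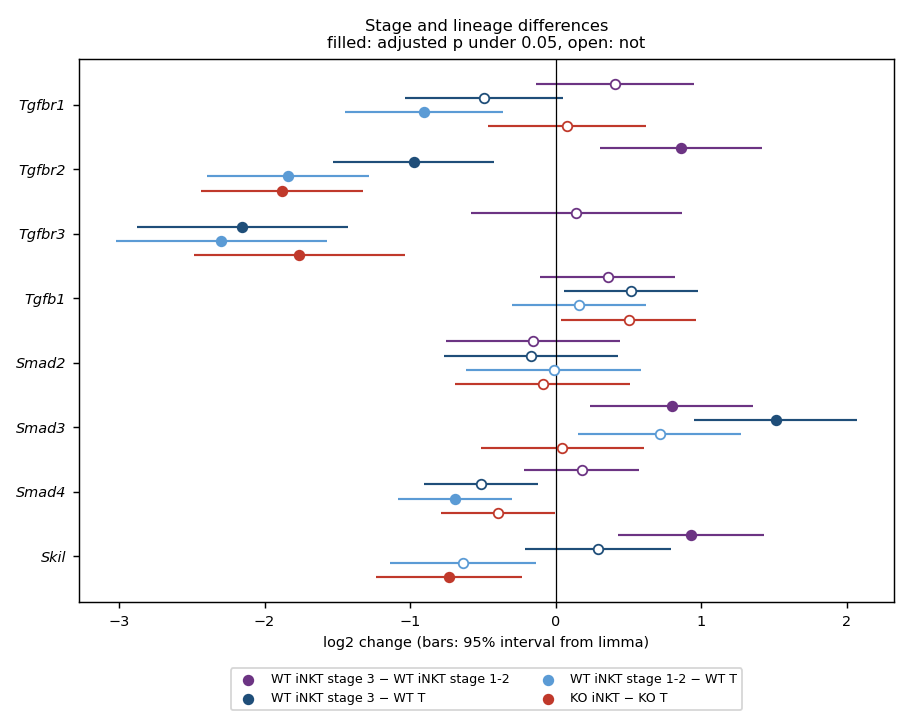
Log2 change of each gene (y axis) between WT iNKT stages and between iNKT and T cells (x axis), with 95% intervals from limma and filled points at an adjusted p under 0.05. Tgfbr2 and Tgfbr3 lie left of 0 in all 3 comparisons of iNKT with T cells, from -2.30 to -0.98, and Smad3 reaches 1.51 in WT iNKT stage 3 minus WT T cells.

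The rest of the pathway was described from lists written from textbook knowledge. Of 56 other components of the TGF-β and related activin and BMP pathways, 22 were tested. In KO iNKT against WT iNKT stage 1-2 cells none of the 22 was higher or lower, against 1.96% and 1.05% of all genes. Their median was -0.05, beside -0.01 for all genes. The smallest adjusted p among the 22 was 0.0596 in limma, that of Furin, a protease that processes the TGF-β precursor, with a change of -1.09. In KO T against WT T cells none of the 22 passed either, against 0.117% higher and 0.0292% lower among all genes. The median there was 0.11, beside 0.00 for all genes. With shares this small, a count of none among 22 does not set the list apart from all genes. Against WT iNKT stage 3 cells 5 of the 22 were higher in KO iNKT cells and 3 lower, where 29.9% of all genes passed. In WT iNKT stage 1-2 against WT T cells 5 were higher and 4 lower, where 11.5% of all genes were higher and 11.9% lower, with the nuclear SMAD co-repressor gene Tgif1 at 2.46 and Smad5, a SMAD of the BMP branch, at -1.40.

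Genes that the pathway is known to regulate in lymphocytes and other cells were described in the same way. Of 20 listed genes that TGF-β induces, Skil among them, 11 were tested. None of the 11 passed in KO iNKT against WT iNKT stage 1-2 cells (median -0.01), against 1.96% higher and 1.05% lower among all genes. Among the 11, Tgfbi was at 1.15 (adjusted p = 0.109 in limma) and Itgae, the integrin chain CD103, at -0.61 (adjusted p = 0.149). Against WT iNKT stage 3 cells 6 of these 11 fell and 2 rose (median -0.78, beside -0.01 for all genes), where 29.9% of all genes passed and the T cell markers fell as given above. Itgae fell by 1.59 and the AP-1 gene Junb fell by 2.27, whereas Tgfbi rose by 3.33 beside the myeloid markers, of which 14 of 15 tested rose in this comparison. Between WT iNKT stages 6 of the 11 were higher at stage 3, where 9.11% of all genes were higher, and 1, Tgfbi, was lower (-2.18). Of 18 listed genes that TGF-β restrains in lymphocytes, 11 were tested. In KO iNKT against WT iNKT stage 1-2 cells 1 of them, the cytokine gene Il4, fell (log2 change -1.455, adjusted p = 0.0269 in limma). None rose, and the list median was -0.13, where 1.96% of all genes were higher and 1.05% lower. Against WT iNKT stage 3 cells 6 of these 11 fell and 1 rose (median -1.07), where 29.9% of all genes passed. The T cell and iNKT markers fell there as given above. Tbx21 and Il2rb were listed both as restrained genes and as iNKT markers, so those lists are not independent. In KO T against WT T cells none of the 11 induced and none of the 11 restrained genes passed in limma at an adjusted p under 0.05. Among all genes 0.117% were higher and 0.0292% lower there. At such shares, a list of 11 without a call is not set apart from all genes.

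The genes most like each receptor were named by Pearson correlation of log2 intensity over the 15 arrays, as a description of samples that share groups and sorts. For Tgfbr1 they were Rab2a (0.94), Ttc3 (0.92) and Pip4k2a (0.90). For Tgfbr2 they were Irf2 (0.96), Wnk1 (0.95) and Hsd11b1 (0.95). For Tgfbr3 they were Smad5 (0.96), Pik3ip1 (0.95) and Acss1 (0.94). Among the members, Tgfbr2 and Tgfbr3 had a correlation of 0.89 and Tgfbr2 and Smad4 one of 0.88 over the 15 arrays. With each group's mean removed these were 0.20 and 0.18. Smad3 and Skil, at 0.38 over all arrays, then stood at 0.75, Smad4 and Skil at 0.72, and Smad3 and Smad4 at 0.65. KO iNKT replicate 3 was the highest KO iNKT array for Smad3, Smad4 and Skil, and its part in these values was not tested.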

How the data were processed

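RNA of the sorted cells was amplified with biotin labelling and read on single-colour bead arrays, per the labels' protocols. The authors deposited a linear signal intensity for each probe under a header that calls it non-normalized, and beside each signal stands a deposited detection p-value. GenomeStudio is named in the submitters' processing notes. Values that the authors had normalized, by a method not given in the sources used here, served as an alternative. Titles gave the groups. Of 25697 probes, 1719 without a single gene symbol were left out. Here neqc of limma 3.58.1 (R 4.3.3, offset 16) corrected the background, normalized by quantiles and gave log2 values; the offset compresses changes at low intensity. Probes had to be detected (detection p-value below 0.05) throughout some group of 3 arrays to be kept. The brightest kept probe, by mean log2 value, stood for its gene. All 15 arrays entered a single limma fit of group means with 10 residual degrees of freedom. The p-values, of a test in both directions, were adjusted per contrast over all 6838 genes (Benjamini-Hochberg); the 95% intervals are unadjusted. The number of arrays limits the precision. The fit was tested on simulated data with known changes.

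The named genes were all members, the 3 genes most correlated with each receptor, and up to 4 genes of each of the 3 lists that passed in the KO comparisons with WT iNKT stage 1-2 or WT T cells. The members and lists were chosen with earlier results of these data known, and the list genes given as examples (Furin, Tgif1, Smad5, Tgfbi, Itgae, Junb) were picked after their values were seen. To see whether equal replicate numbers mark paired samples, deviations from the group means were correlated: 3 of 30 pairs exceeded 0.1, so no pairing was assumed. All 3 joined a WT with a KO group, the highest (0.48) being replicate 3 of WT iNKT stage 3 and KO T cells. What these arrays share was not tested. The closing section gives the alternatives. Figures were drawn with Python 3.11.15 and matplotlib 3.10.9.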

Additional observations from a re-analysis of the deposited data

How the results depend on the processing

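The 20 member calls over the 8 comparisons kept their sign under all alternatives, and 4 of them passed under every one (Tgfbr3 in both WT iNKT groups against WT T cells, and Tgfbr2 and Tgfbr3 in KO iNKT against KO T cells); 9 passed with each array left out. The numbers of members called were as follows. In KO iNKT against WT iNKT stage 1-2 cells, where 3 were called, there were 0 with median scaling, 1 with a fit of the compared groups alone, 1 with median scaling over detected probes (a setting chosen after seeing the data), and 1 to 3 with an array left out. In KO iNKT against WT iNKT stage 3 cells, where 4 were called, there were 0 with median scaling, 2 with a fold change of at least 2, 2 with the compared groups alone and 1 to 4 with an array left out. In KO T against WT T cells, where 0 were called, there was 1 without background correction, 1 in the authors' normalized table, 1 with trend and robust eBayes and 2 with array weights, and 0 with each array left out. In WT iNKT stage 3 against stage 1-2 cells, where 3 were called, there were 0 with median scaling, with median scaling over detected probes and with a fold change of at least 2, 1 with no detection filter, 1 with array weights, 1 with the compared groups alone and 0 to 3 with an array left out. Against WT T cells, stage 1-2 cells had 1 member called with median scaling and 2 with a fold change of at least 2 in place of 4, and stage 3 cells had 1 with median scaling in place of 3. The replicate block (adjusted p of Tgfbr2 0.0413 in KO T against WT T cells, hence 1 member called in place of 0) changed no other count by over 1.5 times; the samples share a number and are not shown to be paired. Tgfbr3 changes were smaller without background correction: 0.53 beside 1.40 and 0.48 beside 1.26 in KO iNKT against WT iNKT stage 1-2 and stage 3 cells, where both calls ended, and -1.03 beside -2.30 in WT iNKT stage 1-2 against WT T cells, where it held. Genes called over the whole table in KO iNKT against WT iNKT stage 1-2 cells ran from 0 with median scaling to 553 with array weights, beside 206. In KO T against WT T cells they ran from 0 with median scaling to 144 with array weights, beside 10. Median scaling moved the median of all genes by up to -0.66 (KO iNKT against KO T cells). A floor on what could be seen came from signal over background: Tgfbr3 in WT iNKT cells, Smad2 and the second probes of the receptors lay near it. The cause of these shifts was not tested.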
